A study of Mus musculus with 31 samples.

Results

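The 6 genes Pou5f1, Sox2, Utf1, Klf4, Klf5 and Esrrb encode nuclear factors of the mouse embryonic stem (mES) cell state. They were taken by name, from probe sets whose annotation gives a single gene symbol. The 6 genes had 8 probe sets among 12422 tested, and the array as a whole represented 8251 genes. Where a gene had several probe sets, the brightest on average stands for it. Pou5f1 and Klf4 had a second probe set each.

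The paper's methods describe B6 mES cells grown on mouse embryonic feeders (MEFs) in 15% FCS with LIF and then depleted of the MEFs. They do not mention sorting. The 31 arrays formed 5 groups. The first day-0 group, called sorted here, held 6 samples of mES cells sorted by FACS on an Oct4 GFP reporter. The second, called gelatin, held 6 samples of MEF-depleted mES cells passaged on gelatin, and these were the cells from which embryoid bodies (EBs) were seeded. EBs were made in nonadherent dishes without LIF and were sampled at day 4 (7 arrays), day 8 (6 arrays) and day 14 (6 arrays). The question was how fast the 6 genes were lost, against each of the day-0 groups and from each EB day to the next. The labels and methods used here do not give the regulatory region of the GFP reporter or the sorting gate. Oct4 is the product of Pou5f1, so the sorted group was chosen on a readout of a member and Pou5f1 is compared with sorted cells as a description, without a test. Counts of members against sorted that include Pou5f1 carry that choice.

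OCT4, the POU-domain protein made from Pou5f1, and SOX2, an HMG-box protein, bind DNA together as partners at enhancers of many genes of the pluripotent state. SOX2 is also a factor of neural progenitors and of several epithelia. Utf1, a chromatin-associated factor, is a known target of the OCT4 and SOX2 pair. KLF4 and KLF5 are zinc finger proteins that bind GC-rich and CACCC-type elements, and Klf4 lies downstream of LIF and STAT3. Esrrb encodes an orphan nuclear receptor of the naive mES cell state. EBs are aggregates in which mES cells without LIF differentiate, with an outer layer of extraembryonic endoderm.

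The genes lie apart in the genome (RefSeq annotation, GRCm38.p6). Pou5f1 is at chr17:35506032-35510777, Sox2 at chr3:34649995-34652461, Utf1 at chr7:139943856-139945112, Klf4 at chr4:55527137-55532475, Klf5 at chr14:99298691-99313412 and Esrrb at chr12:86361117-86521628. The promoter table matched 5 of the members, all but Klf5. The 250 bases before the annotated start are printed for Pou5f1, Sox2 and Utf1, because OCT4 and SOX2 are partners whose transcripts were lost to a different extent and Utf1 is their target. Each is written 5′ to 3′ on the plus strand of GRCm38.p6 from RefSeq, at chr17:35505782-35506031, chr3:34649745-34649994 and chr7:139943606-139943855. Capitals mark matches on either strand to 3 short motifs. The first is the GC box, spelled GGGCGG. The next is the box of letters CACCC, known from promoters bound by KLF proteins. The last is a site of nuclear receptors, spelled AGGTCA.

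Pou5f1: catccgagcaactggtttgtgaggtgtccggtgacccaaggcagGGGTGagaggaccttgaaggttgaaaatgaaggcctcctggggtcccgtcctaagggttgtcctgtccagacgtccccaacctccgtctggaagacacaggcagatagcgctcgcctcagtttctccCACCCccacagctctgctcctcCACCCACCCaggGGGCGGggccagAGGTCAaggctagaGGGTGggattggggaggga

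Sox2: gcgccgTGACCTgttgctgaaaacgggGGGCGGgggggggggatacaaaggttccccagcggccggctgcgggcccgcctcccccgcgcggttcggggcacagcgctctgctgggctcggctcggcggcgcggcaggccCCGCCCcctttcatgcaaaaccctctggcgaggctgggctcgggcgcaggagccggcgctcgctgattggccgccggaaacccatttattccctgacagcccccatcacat

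Utf1: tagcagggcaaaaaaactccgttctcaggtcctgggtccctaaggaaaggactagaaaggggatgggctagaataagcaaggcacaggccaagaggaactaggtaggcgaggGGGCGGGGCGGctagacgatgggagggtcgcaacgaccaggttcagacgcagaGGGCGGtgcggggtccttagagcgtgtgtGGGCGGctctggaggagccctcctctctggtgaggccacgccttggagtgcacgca

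The Pou5f1 window held 5 matches to CACCC, 1 to GGGCGG and 1 to AGGTCA. The Sox2 window held 2 matches to GGGCGG, 1 to AGGTCA and none to CACCC. The Utf1 window held 4 matches to GGGCGG, 2 of them overlapping, and none to the other letters. The letters ATGCAAAT (the octamer of POU proteins) and ACAAT (a SOX core) were also searched on both strands, and neither was found in these 3 windows. Among 32851 windows of the same length in the table, 32.7% held GGGCGG, 52.0% held CACCC, 14.0% held AGGTCA, 1.6% held ATGCAAAT and 27.7% held ACAAT. A match is a description of the letters and not evidence of binding.

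Some arrays stood apart within their groups. At day 4, arrays 6 and 7 correlated at 0.991 with each other over all probe sets but at 0.947 to 0.978 with the other 5 day 4 arrays, which correlated at 0.987 to 0.993 among themselves. At day 8, arrays 2 and 4 correlated at 0.994 with each other and at 0.972 to 0.989 with the other 4. Those 4 correlated at 0.986 to 0.996 among themselves, so that the ranges overlapped at day 8. Each test of a member that rests on day 4 or day 8 was therefore also computed without these arrays, a choice made after seeing the data. Counts for the gene lists and correlations between genes were not recomputed in this way. Day 8 array 6 was kept in those fits, though it stood with arrays 2 and 4 in Pou5f1, Klf4 and visceral endoderm markers, as given below. RNA quality was read from Gapdh control probe sets, as signal at the 3′ end over signal at the 5′ end. This ratio was 2.76 to 3.09 in sorted and 3.48 to 6.85 in gelatin, and among EBs it was 2.24 to 4.40 for day 4, 2.11 to 2.61 for day 8 and 2.06 to 2.68 for day 14. Its part in the differences between groups was not tested. Day 4 arrays 6 and 7 had the lowest Gapdh ratios of their group, at 2.24 and 2.34. The same ratio for actin control probe sets was 3.26 and 3.31 on these arrays, within the day 4 range of 2.33 to 3.40. The actin ratio was 4.10 to 6.82 in gelatin and 2.40 to 2.88 in sorted. It was 2.66 to 3.48 at day 8 and 2.24 to 3.08 at day 14.

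Pou5f1 was kept in most day 4 EBs and lost mainly between day 4 and day 8. Its signal was 5491, 6570 and 6899 (lowest, median and highest of 6 arrays) in sorted cells and 3908, 4921 and 5253 in gelatin cells. Every sorted array lay above every gelatin array. At day 4 the 7 arrays read 5688, 5864, 6651, 5341, 6139, 2407 and 2617, so that 5 arrays lay above all gelatin arrays and arrays 6 and 7 lay below all of them. At day 8 the 6 arrays read 2016, 961, 2316, 949, 2747 and 1210. At day 14 the lowest, median and highest were 691, 969 and 1485. The day 8 and day 14 arrays overlapped with each other and not with either day-0 group.

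On the log2 scale, day 4 EBs differed in Pou5f1 from sorted cells by -0.47 ± 0.25 (SE) and from gelatin cells by -0.02 ± 0.25 (limma adjusted p = 1.00). The 95% interval of the day 4 level ran from 50.5% to 104% of sorted and from 69.0% to 142% of gelatin. From day 4 to day 8 Pou5f1 fell by 1.57 on the log2 scale, to 33.6% of the day 4 level (95% interval 23.4% to 48.1%, limma adjusted p = 4.06e-05). From day 8 to day 14 the difference was -0.60 ± 0.26 (limma adjusted p = 0.0814). At day 14 the level was 16.0% of sorted cells (11.0% to 23.3%) and 21.9% of gelatin cells (15.1% to 31.8%). These levels correspond to log2 changes of -2.64 ± 0.26 and -2.19 ± 0.26, the latter with a limma adjusted p = 9.42e-08. In order of mean log2 signal the groups stood as sorted, gelatin, day 4, day 8 and day 14. Of the neighbours after sorted, only day 4 and day 8 differed.

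The arrays that stood apart set how sharp the Pou5f1 loss looked. Without day 4 arrays 6 and 7, day 4 was at -0.11 against sorted and 0.34 against gelatin (limma adjusted p = 0.309), and the fall to day 8 was -1.93. Without day 8 arrays 2 and 4, the fall to day 8 was -1.22 and the later fall to day 14 was -0.95 and passed (limma adjusted p = 0.00535). Leaving out only day 8 array 2 or 4 also made that later fall pass, at -0.74 in both cases (limma adjusted p = 0.0320 and 0.0311). With all arrays it passed with array weights (-0.86, limma adjusted p = 6.31e-04), median centring (-0.69, limma adjusted p = 0.0352) and quantile normalization (-0.71, limma adjusted p = 0.0397). In these bulk samples, fewer cells with a transcript and less transcript per cell cannot be told apart.

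The second and dimmer Pou5f1 probe set did not follow the first. Its mean signal was 643 ± 31.7 (SD, n = 6) in sorted, 652 ± 23.7 (n = 6) in gelatin, 645 ± 60.8 (n = 7) in day 4 EBs, 617 ± 24.0 (n = 6) in day 8 EBs and 696 ± 53.7 (n = 6) in day 14 EBs. It passed no comparison with a day-0 group and was higher at day 14 than at day 8 by 0.17 (limma adjusted p = 0.0213). With the mean of both probe sets in place of the brighter, the day 14 change was -1.26 from sorted and -1.05 from gelatin, and the latter still passed (limma adjusted p = 6.49e-07). The probe sequences that would place it on a transcript were not used here.

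Sox2, by its only probe set, kept most of its level through day 14. The mean signal of that probe set was at percentile 97.4 of all probe sets, and no second probe set was there to compare it with. Its signal was 6056, 7646 and 9238 (lowest, median, highest) in sorted cells and 5185, 5883 and 6739 in gelatin cells. At day 4 it was 4397, 7224 and 8403, at day 8 it was 3801, 5120 and 6075, and at day 14 it was 5195, 5653 and 7221. All groups overlapped with the next in order, which ran sorted, day 4, day 14, gelatin and day 8, and no neighbours in that order differed. The level at day 14 was 101% of gelatin (95% interval 83.0% to 123%) and 78.4% of sorted (64.3% to 95.5%). The difference from sorted was -0.35 ± 0.14 (limma adjusted p = 0.0381), and leaving out any of 8 arrays ended that call: day 14 arrays 1, 2, 4 and 6 and sorted arrays 1, 2, 3 and 6 (values -0.30 to -0.35, limma adjusted p = 0.0540 to 0.0945). The lowest point was day 8, at -0.62 ± 0.14 against sorted (limma adjusted p = 9.43e-04) and -0.46 ± 0.13 against day 4 (limma adjusted p = 0.0128). Without day 8 arrays 2 and 4 the step from day 4 was -0.41 and did not pass (limma adjusted p = 0.0568), and with only the groups compared it was also lost (limma adjusted p = 0.0807). The step from day 8 to day 14 was 0.27 ± 0.14 and did not pass (limma adjusted p = 0.145). Without day 4 arrays 6 and 7, Sox2 was higher at day 4 than in gelatin by 0.37 (limma adjusted p = 0.0273), where all 7 arrays gave 0.20 ± 0.13 (limma adjusted p = 0.294).

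Utf1 held until day 8 and fell between day 8 and day 14. The lowest, median and highest signals were 1949, 2384 and 2515 in sorted, 1676, 1780 and 2038 in gelatin, 1831, 2010 and 2861 in day 4 EBs, 1598, 2135 and 2438 in day 8 EBs and 1188, 1430 and 1593 in day 14 EBs. No day 14 array reached a day 8 array or an array of either day-0 group. The step from day 8 to day 14 was -0.54 ± 0.11 (limma adjusted p = 4.01e-04), and the steps before it did not pass. At day 14 Utf1 was 60.5% of sorted (95% interval 51.9% to 70.6%) and 76.9% of gelatin (65.9% to 89.6%, limma adjusted p = 0.00508). The order was sorted, day 4, day 8, gelatin and day 14, and among neighbours only gelatin and day 14 differed. Without day 8 arrays 2 and 4, Utf1 was higher at day 8 than in gelatin by 0.32 (limma adjusted p = 0.0169), where all arrays gave 0.16 ± 0.11 (limma adjusted p = 0.238).

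Klf4 was the member that differed most between the day-0 groups. Its signal was 4491, 4816 and 5334 (lowest, median, highest) in sorted and 2098, 2585 and 3250 in gelatin, with no overlap, a difference of -0.90 ± 0.32 (limma adjusted p = 0.0269). Without gelatin array 5 it was -0.84 and did not pass (limma adjusted p = 0.0548). At day 4 the 7 arrays read 3411, 4654, 4373, 3329, 3607, 961 and 1236. At day 8 the 6 arrays read 1691, 1330, 2098, 1075, 2572 and 930, and at day 14 the lowest, median and highest were 875, 1677 and 2431. The first 5 day 4 arrays thus lay above all gelatin arrays, and arrays 6 and 7 lay within the range of the later EBs.

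Klf4 fell against sorted cells on all 3 EB days, by 0.86 at day 4 (limma adjusted p = 0.0445), by 1.68 at day 8 (limma adjusted p = 1.90e-04) and by 1.64 at day 14 (limma adjusted p = 1.27e-04) on the log2 scale. The day 4 call rested on few arrays. It was -0.34 without arrays 6 and 7 (limma adjusted p = 0.291), and it was lost when any of 8 arrays was left out: day 4 array 6 or 7 or any of sorted arrays 1 to 6 (values -0.88 to -0.61, limma adjusted p = 0.0577 to 0.105). It was also lost with array weights (-0.51, limma adjusted p = 0.135), the 25th percentile as floor (limma adjusted p = 0.0539), only the groups compared (limma adjusted p = 0.122) and the replicate block, in which day 4 array 7 has no partner and adds nothing (-0.67, limma adjusted p = 0.0917). Against gelatin the values lay near the threshold and no EB day passed, with -0.77 ± 0.32 at day 8 (limma adjusted p = 0.0538) and -0.74 ± 0.32 at day 14 (limma adjusted p = 0.0646). The 95% interval of the day 14 change ran from -1.40 to -0.07 on the log2 scale. The day 8 value passed without day 8 array 3 or 5 (limma adjusted p = 0.0416 and 0.0265) and the day 14 value without day 14 array 2 or 4 (limma adjusted p = 0.0488 and 0.0387). Day 8 also passed with array weights (-0.64, limma adjusted p = 0.0276), only the groups compared, the replicate block, dim probe sets left out and a floor at percentile 1 (limma adjusted p = 0.0196, 0.0321, 0.0419 and 0.0489). Day 14 also passed with array weights (-0.76, limma adjusted p = 0.00908), median centring (-0.78, limma adjusted p = 0.0423), only the groups compared and the replicate block (limma adjusted p = 0.0229 and 0.0395). The step from day 4 to day 8 was -0.82 ± 0.31 (limma adjusted p = 0.0537), and it was -1.34 without day 4 arrays 6 and 7 (limma adjusted p = 5.39e-05). It also passed without day 4 array 6 or 7 alone or day 8 array 3 or 5 alone (values -1.07 to -0.92, limma adjusted p = 0.00399 to 0.0437), and with array weights, the replicate block, median centring, dim probe sets left out or a floor at percentile 1 (limma adjusted p = 0.00236, 0.0108, 0.0378, 0.0387 and 0.0485). The order was sorted, day 4, gelatin, day 14 and day 8, and among neighbours only sorted and day 4 differed. The second Klf4 probe set read 16.3 to 41.2 on all 31 arrays, under the floor of 59.6, and gives no measurement, so that a mean with it puts the day 14 change from sorted at -0.82 (limma adjusted p = 1.18e-04).

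Klf5 was lost early and then kept its lower level. Its signal was 679, 806 and 991 (lowest, median, highest) in sorted and 784, 1054 and 1371 in gelatin. In EBs it was 469, 534 and 733 for day 4, 407, 567 and 721 for day 8 and 428, 546 and 807 for day 14. All day 4 and day 8 arrays lay below all gelatin arrays. On gelatin arrays 3, 4 and 6 Klf5 read 1371, 1285 and 1097, with Gapdh ratios of 6.67, 6.31 and 6.85. On gelatin arrays 1, 2 and 5 it read 1012, 812 and 784, with ratios of 4.04, 3.94 and 3.48. The part of RNA quality in the Klf5 level was not tested. By day 4 Klf5 fell by 0.89 from gelatin (limma adjusted p = 1.12e-04) and by 0.52 from sorted (limma adjusted p = 0.0177) on the log2 scale. The later steps were 0.00 ± 0.16 from day 4 to day 8 and 0.01 ± 0.17 from day 8 to day 14. The 95% interval of the day 8 level ran from 79.8% to 125% of day 4, and that of day 14 from 79.6% to 127% of day 8. The order was gelatin, sorted, day 14, day 8 and day 4, and among neighbours only sorted and day 14 differed. Against sorted, the day 8 value of -0.52 (limma adjusted p = 0.0154) was -0.43 without day 8 array 2 (limma adjusted p = 0.05003) and -0.39 without arrays 2 and 4 (limma adjusted p = 0.103). Klf5 was the member whose day-0 difference pointed the other way, at 0.37 ± 0.17 for gelatin over sorted (limma adjusted p = 0.0737). That difference passed without gelatin array 2 or 5 or sorted array 5 (values 0.44 to 0.45, limma adjusted p = 0.0354 to 0.0484).

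Esrrb was dim on this array, with a mean signal at percentile 17.7 of all probe sets. Its highest reading on any array, 213, lay under the 25th percentile of all signals (224). The part of background signal in its small changes was not tested. Its signal was 163, 184 and 189 (lowest, median, highest) in sorted, 144, 156 and 169 in gelatin, 159, 171 and 213 in day 4 EBs, 140, 169 and 177 in day 8 EBs and 130, 139 and 149 in day 14 EBs. No day 14 array reached a sorted array. It fell by 0.24 from day 8 to day 14 (limma adjusted p = 0.00552) and by 0.37 from sorted to day 14 (limma adjusted p = 2.02e-05) on the log2 scale. Against gelatin it was higher at day 4 by 0.17 (limma adjusted p = 0.0402) and lower at day 14, at -0.17 (limma adjusted p = 0.0265). The day 4 call was lost without day 4 array 1, 5 or 6 or gelatin array 1, 2, 5 or 6 (values 0.13 to 0.17, limma adjusted p = 0.0589 to 0.105). It was also lost without day 4 arrays 6 and 7 (0.16, limma adjusted p = 0.0856), with array weights (0.13, limma adjusted p = 0.120), with only the groups compared (limma adjusted p = 0.0960) and with the replicate block (0.18, limma adjusted p = 0.0507). The day 14 call was lost without day 14 array 4 or 5 or gelatin array 3 or 4 (values -0.15 to -0.16, limma adjusted p = 0.0567 to 0.0661). The order was sorted, day 4, day 8, gelatin and day 14, and among neighbours only gelatin and day 14 differed.

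**Figure D1:**
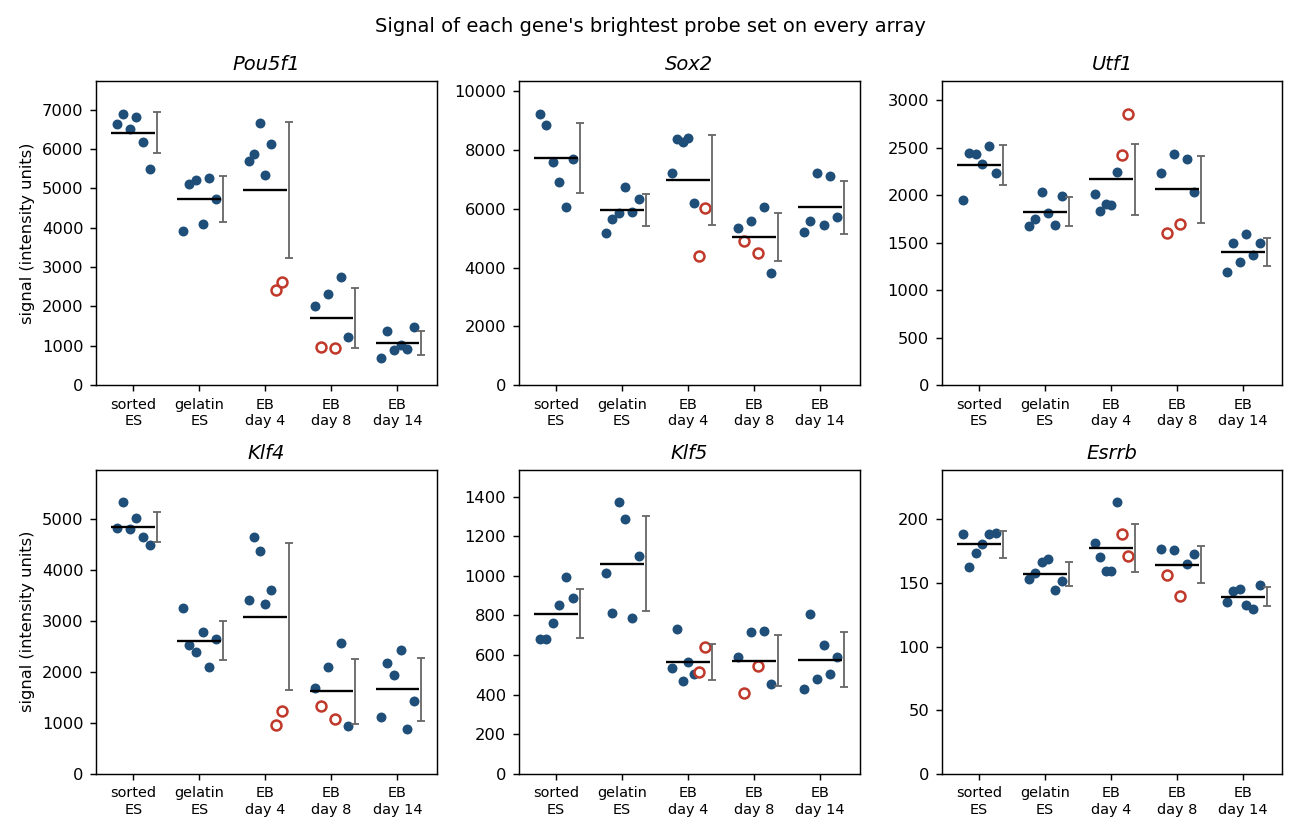
Each panel plots the signal in intensity units (y axis, from 0) of 1 gene on every array of the 5 groups (x axis), with the mean as a black line and ± 1 SD as a grey bar beside it. Open red points are day 4 arrays 6 and 7 and day 8 arrays 2 and 4, and for Pou5f1 and Klf4 the open day 4 points lie below all gelatin arrays while for Utf1 they lie above the other day 4 arrays.

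The choice of day-0 group changed which members counted as lost. Against sorted cells 2 of the 6 members were lower at day 4 (Klf4 and Klf5), 4 at day 8 (Pou5f1, Sox2, Klf4 and Klf5) and all 6 at day 14, where 13.7%, 19.9% and 24.0% of all probe sets were lower. The day 8 and day 14 counts against sorted include Pou5f1, which is there as a description and not as a test. Against gelatin cells 1 member was lower at day 4 (Klf5), 2 at day 8 (Pou5f1 and Klf5) and 4 at day 14 (Pou5f1, Utf1, Klf5 and Esrrb), where 16.3%, 25.6% and 23.2% of all probe sets were lower. The single member higher in any of these comparisons was Esrrb at day 4 against gelatin, where 7.95% of all probe sets were higher. Between the day-0 groups 4 members were lower in gelatin (Sox2, Utf1, Klf4 and Esrrb), where 18.2% of all probe sets were lower. Klf5 did not pass, and Pou5f1 is given as a description. The median member differed by -0.36 between gelatin and sorted on the log2 scale, against a median of 0 over all probe sets. At day 14 the median member stood at -0.62 from sorted and -0.56 from gelatin, against medians of 0. The sorted and gelatin comparisons share the EB arrays. The Esrrb calls in these counts come from the dim probe set described above.

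The 4 members lower in gelatin stood at -0.90 to -0.20 on the log2 scale. The Sox2 value was -0.37 (limma adjusted p = 0.0359), and leaving out any of 8 arrays ended the call: gelatin arrays 1, 2, 3 and 5 and sorted arrays 1, 2, 3 and 6 (values -0.31 to -0.37, limma adjusted p = 0.0525 to 0.0906). The Utf1 value was -0.34 (limma adjusted p = 0.0123) and the Esrrb value -0.20 (limma adjusted p = 0.0137). Pou5f1 was at -0.45 ± 0.26, as a description. Markers of fibroblasts and feeders moved with this comparison: 11 of 21 measured were higher in gelatin and 1 was lower, and 21.4% of all probe sets were higher. Their summed signal was 25838 to 32715 in sorted and 43918 to 68383 in gelatin, and none of the 21 was at the floor on all arrays of either group. The part of these markers in the member differences was not tested.

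**Figure D2:**
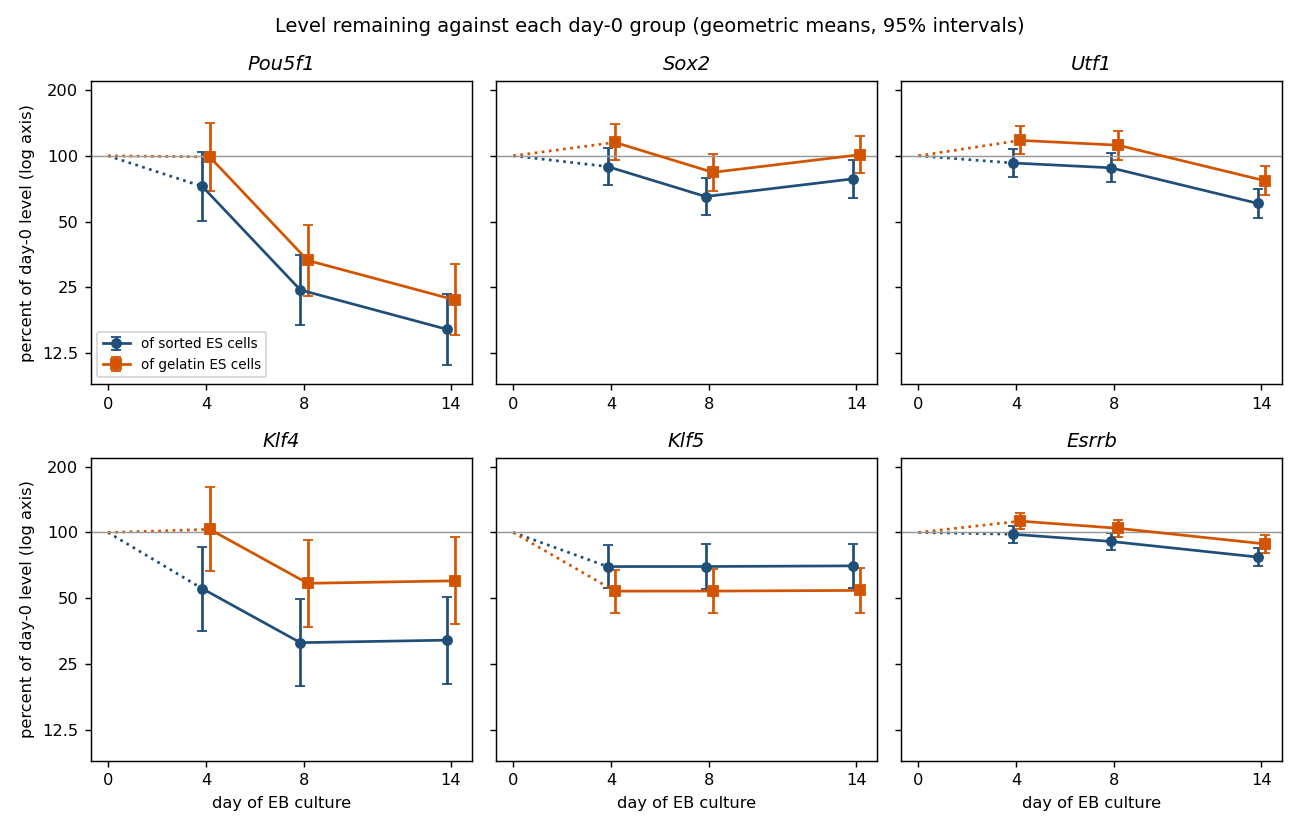
Each panel plots the level of 1 gene as a percent of its day-0 level (y axis, log scale) against the day of EB culture (x axis), with blue circles for sorted and orange squares for gelatin as day 0 and bars for 95% intervals of the limma estimate. Pou5f1 ended at 16.0% of sorted and 21.9% of gelatin, and Sox2 at 78.4% and 101%.

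The members were lost over different intervals. From day 4 to day 8, 2 of 6 members were lower (Pou5f1 and Sox2), where 12.6% of all probe sets were lower. From day 8 to day 14, 2 were lower (Utf1 and Esrrb), where 11.9% of all probe sets were lower. Under the alternatives given above, Klf4 also passed over the first interval and Pou5f1 over the second. The change of pace was tested as the step from day 4 to day 8 minus the step from day 0 to day 4, which are intervals of 4 days each. With gelatin as day 0, the later step was more negative for Pou5f1 by -1.56 ± 0.43 (limma adjusted p = 0.0130) and for Sox2 by -0.66 ± 0.23 (limma adjusted p = 0.0480), and less negative for Klf5 by 0.89 ± 0.27 (limma adjusted p = 0.0237). These 3 of 6 members stand beside 16.0% of all probe sets with a change of pace in either direction. With sorted as day 0 no member of the 6 passed by limma, where 19.5% of all probe sets did. The Pou5f1 value there was -1.11 ± 0.43, as a description.

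The pace of Pou5f1 depended on the arrays that stood apart. Without day 4 arrays 6 and 7, its later step was more negative against both day-0 groups, by -1.82 with sorted and -2.27 with gelatin (limma adjusted p = 9.77e-05 for the latter). Without day 8 arrays 2 and 4 it was -0.76 with sorted and -1.21 with gelatin (limma adjusted p = 0.0471 for the latter). With only the groups compared the gelatin value did not pass (limma adjusted p = 0.0508). For Sox2 without day 4 arrays 6 and 7 the values were -0.62 with sorted (limma adjusted p = 0.0263) and -0.99 with gelatin (limma adjusted p = 9.55e-04). The gelatin value of Sox2 did not pass without day 8 arrays 2 and 4 (-0.62, limma adjusted p = 0.101). Leaving out any of 14 arrays also ended that call: day 4 arrays 1 to 5, day 8 arrays 1, 2, 4 and 6 and gelatin arrays 1, 2, 3, 5 and 6 (values -0.71 to -0.56, limma adjusted p = 0.0508 to 0.129), as did the 25th percentile as floor and a fit of only the groups compared (limma adjusted p = 0.0558 and 0.0871). The Klf5 value did not pass without day 4 array 3 or 5 (0.81 and 0.84, limma adjusted p = 0.0657 and 0.0540) or with quantile normalization (0.78, limma adjusted p = 0.0514). With gelatin as day 0, Klf4 was at -0.87 ± 0.53 (limma adjusted p = 0.300) and passed without day 4 array 6 (-1.36, limma adjusted p = 0.0430) or without both arrays 6 and 7 (-1.91, limma adjusted p = 9.29e-04). Esrrb was at -0.28 ± 0.11 (limma adjusted p = 0.0670) and passed without day 4 array 3 or 4 (-0.33 in both cases, limma adjusted p = 0.0429 and 0.0405), with median centring (-0.38, limma adjusted p = 0.0275) and with quantile normalization (-0.33, limma adjusted p = 0.0343).

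After day 8 the change per day was less negative for Pou5f1 and Sox2 than before it. Per day, the step from day 8 to day 14 minus the step from day 4 to day 8 was 0.29 ± 0.09 for Pou5f1 (limma adjusted p = 0.0300) and 0.16 ± 0.05 for Sox2 (limma adjusted p = 0.0269). These 2 of 6 members stand beside 17.9% of all probe sets in either direction. Neither call held with only the groups compared (limma adjusted p = 0.105 for Pou5f1 and 0.0709 for Sox2). The Pou5f1 value was 0.15 and did not pass without day 8 arrays 2 and 4 (limma adjusted p = 0.279). It also did not pass without day 8 array 2, 4 or 6 alone (values 0.23 to 0.26, limma adjusted p = 0.0806 to 0.0887). The Sox2 value did not pass without day 8 arrays 2 and 4 (0.14, limma adjusted p = 0.0829) or without day 8 array 4 or 6 alone (0.15 and 0.13, limma adjusted p = 0.0562 and 0.0977). Utf1 went the other way, at -0.07 ± 0.04 per day over all arrays (limma adjusted p = 0.201), and passed without day 4 arrays 6 and 7 (-0.10, limma adjusted p = 0.0274) and without day 8 arrays 2 and 4 (-0.14, limma adjusted p = 0.0133). Klf4 was at 0.21 ± 0.12 per day (limma adjusted p = 0.209) and passed without day 4 array 6 (0.27, limma adjusted p = 0.0440) and without day 4 arrays 6 and 7 (0.34, limma adjusted p = 0.00239).

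**Figure D3:**
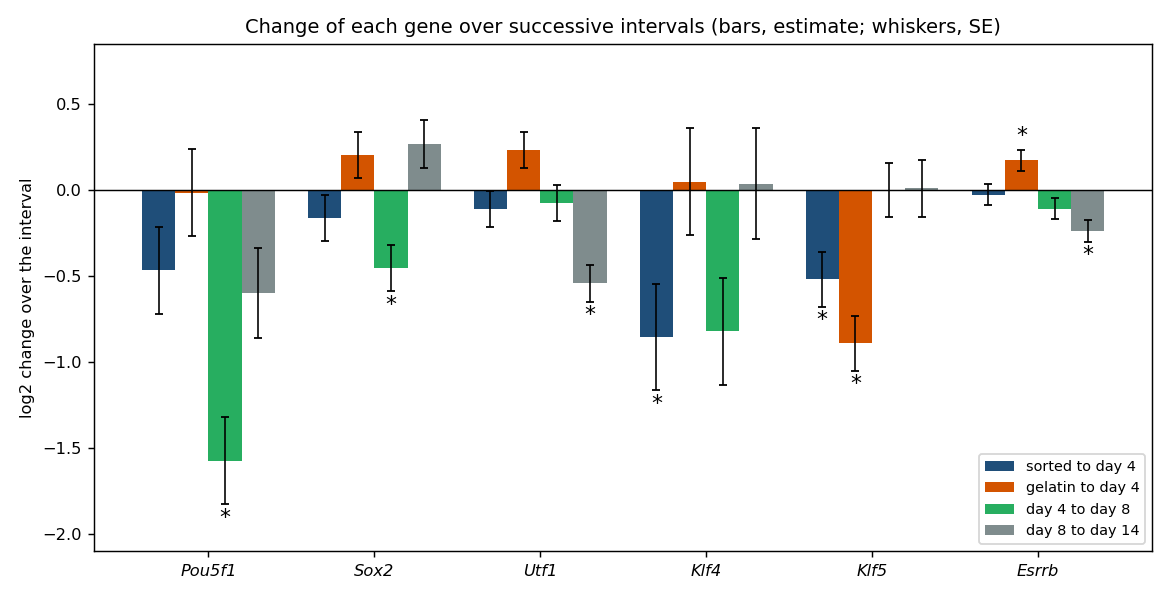
Bars plot the log2 change (y axis) of each gene (x axis) over 4 intervals, from sorted to day 4, from gelatin to day 4, from day 4 to day 8 and from day 8 to day 14, with SE as whiskers and an asterisk where the limma adjusted p is under 0.05. The longest bar is the Pou5f1 step of -1.57 from day 4 to day 8, Klf5 has its steps before day 4, and Utf1 has its step of -0.54 after day 8.

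The extent of loss at day 14 differed between most pairs of members. Differences between 2 members were taken within each array and compared between 6 day 14 and 6 day-0 arrays by a two-sided exact permutation test of 924 regroupings, whose smallest possible p is 0.00216, adjusted over 15 pairs. Against gelatin 11 of 15 pairs differed and against sorted 10 of 15. The 10 against sorted include the 5 pairs with Pou5f1, on whose product's reporter those cells were sorted. Against gelatin the brighter Pou5f1 probe set fell further than each of the other 5 members (exact permutation adjusted p = 0.00649). The second Pou5f1 probe set was at 0.09 from gelatin at day 14. The mean of both was at -1.05, beside -0.88 for Klf5. The change of the brighter Pou5f1 probe set minus that of Sox2, the partner, was -2.21 ± 0.22 (SE) on the log2 scale against gelatin. As a description, it was -2.29 ± 0.22 against sorted. Klf4 fell further than Klf5 against sorted, with a difference of -1.13 ± 0.21 (exact permutation adjusted p = 0.00361). Against gelatin the Klf4 and Klf5 losses differed by 0.15 ± 0.23 (exact permutation adjusted p = 0.524). Sox2 minus Esrrb was 0.19 ± 0.11 against gelatin and 0.02 ± 0.14 against sorted, and neither passed (exact permutation adjusted p = 0.107 and 0.874).

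Arrays of the same day also differed in these genes. At day 4, arrays 6 and 7 had the lowest Pou5f1 (2407 and 2617) and Klf4 (961 and 1236) of the group and the highest Utf1 (2427 and 2861, against 1831 to 2248 on the other 5). The summed signal of 15 visceral endoderm markers was 10487 and 12024 on these arrays and 6400 to 7152 on the other 5. At day 8, arrays 2, 4 and 6 had the lowest Pou5f1 (961, 949 and 1210) and Klf4 (1330, 1075 and 930). The visceral endoderm sums there were 35691, 34541 and 35852, against 20802 to 25824 on arrays 1, 3 and 5. Epithelial marker sums were also highest on these arrays, at 40220, 37895 and 39692 against 29662 to 33377. At day 4 they were 26130.5 and 28829 on arrays 6 and 7 against 16416 to 20481. Fibroblast and feeder sums were 37986, 31158 and 31220 on day 8 arrays 2, 4 and 6 against 21309 to 22526. On day 4 arrays 6 and 7 they were lowest, at 17333 and 18905 against 19219 to 29451. Utf1 at day 8 was lowest on arrays 2, 4 and 6 (1598, 1694 and 2031). Low Pou5f1 thus went with high Utf1 at day 4 and with low Utf1 at day 8. These are descriptions of single arrays without a test. The part of visceral endoderm, epithelial or fibroblast cells in the member levels was not tested. None of the 15 visceral endoderm markers was at the floor on every array of any group.

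Over all 31 arrays, Pou5f1 varied most closely with Klf4 among the members (r = 0.83) and Utf1 with Esrrb (r = 0.77). The weakest relation was that of Sox2 with Utf1 (r = 0.12). These correlations describe arrays that share the 5 groups, and no p is given. Among 8157 genes compared, those most like Pou5f1 were Cds2 (r = 0.96), a lipid synthesis enzyme, Gpank1 (r = 0.95) and Wdr43 (r = 0.95), a nucleolar protein. Gpank1 lies on chromosome 17 as Pou5f1 does, 385 kb away from start to start. The genes most like Sox2 were Snrnp40, Nop53 and Cdt1 (r = 0.80 to 0.82), and those most like Utf1 were Klk1b21, Get3 and Rps4l (r = 0.90 to 0.92). Those most like Klf4 were Ash2l, Laptm5 and Cpt1a (r = 0.86 to 0.90), most like Klf5 were Cdk9, Ak1 and Tubgcp4 (r = 0.83 to 0.86), and most like Esrrb were Rab4b, H1f3 and Pagr1a (r = 0.83 to 0.86).

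Other genes of the pluripotency network fell by day 14 as well. Of 27 measured, 23 were lower against sorted and none was higher, and 18 were lower and 1 was higher against gelatin. Their median change was -1.36 from sorted and -0.83 from gelatin, against medians of 0 over all probe sets. At day 14, 24.8% of all probe sets were higher and 24.0% lower than in sorted. Against gelatin 21.8% were higher and 23.2% lower. Dppa2 and Dppa4, a pair of chromatin factors of mES cells, changed by -2.87 ± 0.33 and -2.48 ± 0.27 against gelatin. Tdgf1, a Nodal co-receptor, changed by -2.39 ± 0.24 and Gdf3, a TGFβ family ligand, by -2.08 ± 0.22 (limma adjusted p = 4.52e-09 to 3.69e-08 for these 4). The 1 that rose against gelatin was Tbx3, a T-box factor downstream of LIF, by 0.99 (limma adjusted p = 3.67e-04), where against sorted it was at -0.10 (limma adjusted p = 0.760). At day 4 the same list had 1 gene lower and 11 higher than gelatin, and 4 lower and 5 higher than sorted. Of all probe sets, 16.3% were lower and 7.95% higher than gelatin at that day, and 13.7% lower and 11.1% higher than sorted. At day 8 it had 11 lower and 10 higher than gelatin, and 17 lower and 2 higher than sorted. At day 8, 25.6% of all probe sets were lower and 17.4% higher than gelatin, and 19.9% were lower and 15.3% higher than sorted.

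Known targets of the OCT4 and SOX2 pair were lower at day 14 in 6 of 6 cases against sorted and in 4 of 6 against gelatin. Of all probe sets, 24.0% were lower against sorted and 23.2% against gelatin. Those that passed against gelatin were Tdgf1, Fgf4, a growth factor (-1.43), Fbxo15, an F-box protein (-1.24), and Lefty1, a Nodal inhibitor (-1.14). Nanog and Zfp42 did not pass there, at -0.29 (limma adjusted p = 0.333) and -1.16 (limma adjusted p = 0.0725). The 4 genes Fgf4, Fbxo15, Nanog and Zfp42 were lower in gelatin than in sorted, at -1.21, -2.32, -1.17 and -3.46 on the log2 scale. Lefty1 was higher there, at 0.48 (limma adjusted p = 0.0261).

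**Figure D4:**
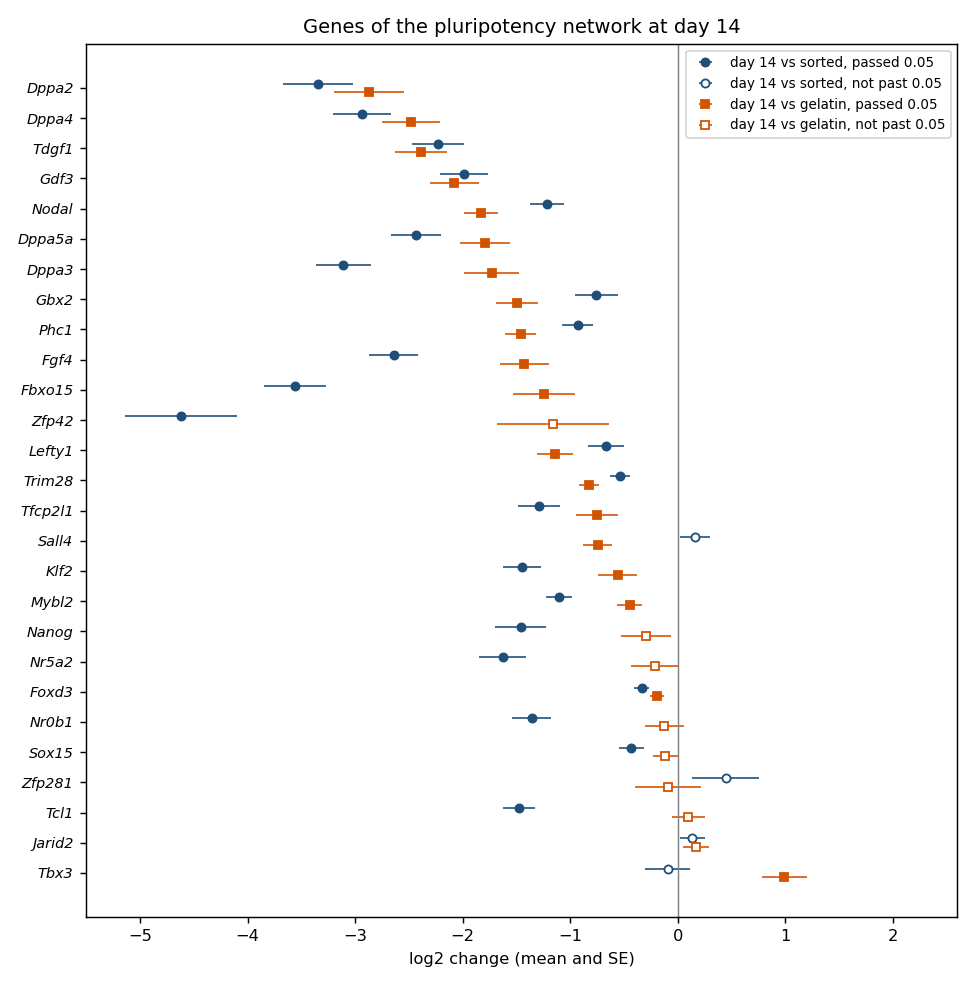
Points plot the log2 change at day 14 (x axis, with SE as bars) of the 27 measured genes of the pluripotency network (y axis), with blue circles against sorted and orange squares against gelatin and filled symbols where the limma adjusted p is under 0.05. Most points lie left of 0, Zfp42 and Fbxo15 lie further left against sorted than against gelatin, and Tbx3 lies right of 0 against gelatin.

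The LIF and STAT3 pathway did not move one way. Of 13 measured genes, 5 were lower and 3 higher at day 14 against gelatin, where 23.2% of all probe sets were lower and 21.8% higher. The counts were the same against sorted, where 24.0% of all probe sets were lower and 24.8% higher. Against gelatin the LIF receptor gene Lifr rose by 2.30, Tbx3 rose by 0.99, Myc fell by 1.11 and Klf2, a KLF factor of the naive state, fell by 0.56 on the log2 scale. Socs3, a feedback inhibitor of STAT3, fell by 0.53 and Stat3 itself by 0.18.

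Relatives of the members did not move one way. The counts stand beside the 23.2% lower and 21.8% higher of all probe sets against gelatin, and the 24.0% lower and 24.8% higher against sorted. Of 10 other KLF genes, 1 was lower at day 14 against gelatin (Klf2), and 3 were lower and 3 higher against sorted. Of 13 other SOX genes, 4 were lower and 4 higher against gelatin and 6 lower and 4 higher against sorted, and the largest change was that of Sox11, a factor of neural progenitors, at 1.10 from gelatin and 3.12 from sorted. Of 8 genes in the POU list, which includes the coactivator gene Pou2af1, 1 was lower (Pou3f1, -0.39) and 2 were higher (Pou3f4, 0.48, and Pou2f3, 0.28) against gelatin, and 1 was lower and 2 higher against sorted. Of 6 genes related to estrogen receptors or their coactivators, 2 were lower (Esrra, -0.53, and Ncoa3, -0.36) and 1 was higher (Ncoa2, 0.17) against gelatin, and 2 were lower and none higher against sorted.

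Most markers of visceral endoderm were higher at day 14. At day 4 none of the 15 was higher or lower than gelatin, where 7.95% of all probe sets were higher and 16.3% lower. Against gelatin at day 14, 13 of 15 visceral endoderm markers were higher and none was lower, where 21.8% of all probe sets were higher and 23.2% lower, with Apob (5.48) and Rbp4 (5.34) the furthest up. Their summed signal was 6723 to 7726 in gelatin and 36550 to 46311 at day 14. Sox2 is also used outside mES cells, and the neural progenitor markers beside it were 4 higher and 4 lower of 19, near those shares of all probe sets, with Zic1 (3.20), Fabp7 (2.88) and Sox11 (1.10) higher and Nes (-2.30) lower. Their summed signal was 18748 to 22823 in gelatin, 12869 to 14645 at day 8 and 17758 to 27420 at day 14. Of 16 epithelial markers, 5 were higher and 4 lower, shares not far from those of all probe sets, with Krt19 (1.99), Ocln (1.82), Cldn6 (1.46) and Krt18 (1.32) higher. Spint1 was at -0.40 from gelatin and at 0.49 from sorted on the log2 scale, and both passed. The part of these cell types in the Sox2 and other member levels was not tested.

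The day 14 counts below stand beside 21.8% higher and 23.2% lower of all probe sets against gelatin. Against sorted those shares were 24.8% higher and 24.0% lower. Among the remaining markers, 7 of 21 fibroblast and feeder genes were higher and 8 lower at day 14 against gelatin. Lum (4.54), Postn (4.53) and Dcn (3.52) were higher and Fbln2 (-2.95) lower. Of 10 primitive streak markers 5 were higher and 1 was lower, with Cer1 at 2.01, Eomes at 0.58, Lhx1 at 0.46 and Gsc at -0.38. Of 7 germ cell markers 2 were higher (Kit, 1.80, and Prdm1, 1.67) and 2 lower (Dppa3, -1.73, and Tfap2c, -0.49), and Sycp3 was at the floor in every group. Of 9 trophoblast markers 3 were higher and 2 lower, with Tpbpa at 1.24 and Esx1 at -0.44, and Elf5 was at the floor in every group. Against sorted, the counts at day 14 were 11 higher and 1 lower of the visceral endoderm, 7 and 2 of the neural progenitor, 10 and 1 of the epithelial, 9 and 5 of the fibroblast and feeder, 5 and 1 of the primitive streak, 2 and 3 of the germ cell and 2 and 3 of the trophoblast markers.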

How the data were processed

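The 31 samples were hybridised to 1-colour oligonucleotide arrays after 2 rounds of linear amplification. The authors normalized the scanned arrays with dChip and deposited 1 linear intensity per probe set and array; the dChip version and model are not given in the sources used here. Groups came from the sample labels, which give day 14, while the methods list other late days. The labels do not tie replicates to separate cultures; the methods speak of biological samples.

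Of 12488 probe sets, 66 controls were left out. Signals under the 5th percentile (59.6) were set to it and log2 taken. Across all 31 arrays and 5 groups, limma 3.58.1 (R 4.3.3; lmFit, eBayes with trend) tested each contrast, with Benjamini-Hochberg adjustment over 12422 probe sets at 0.05. The number of arrays limits the precision. Annotation gave 1 symbol to 10833 probe sets, several to 396 and none to 1193. A gene was its probe set with the highest mean signal. Pairs of members were compared by exact permutation tests in Python 3.11.15.

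The members and gene lists were chosen with earlier results of these data known. From each list the up to 4 genes with the largest day 14 change from gelatin among those that passed were named, with any gene that passed in opposite directions against the 2 day-0 groups. For each member the 3 genes with the highest Pearson r were named. Other genes were named after their values were seen. The alternatives were other floors, no dim probe sets, median centring, quantile normalization, array weights, no variance trend, probe sets of 1 gene averaged, fits of only the groups compared, a replicate block, and each array left out. Fits without the arrays that stood apart were added after seeing the data. The fit was tested on simulated data.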

Additional observations from a re-analysis of the deposited data

Results flagged for a closer look

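Changes of pace were singled out because a test of the difference between intervals passed. With gelatin as day 0, the log2 step from day 4 to day 8 minus the step to day 4 was -1.56 for Pou5f1, -0.66 for Sox2 and 0.89 for Klf5. Per day, the step from day 8 to day 14 minus that from day 4 to day 8 was 0.29 for Pou5f1 and 0.16 for Sox2. In 35 sets of arrays, 1 for each probe set but those under the floor and each group, a check for an array far from the others (which chance meets in about 1 of 20 sets) found 0.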

How the results depend on the processing

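No value that passed turned to the opposite direction under any alternative run. Leaving out 1 array kept the call of 929 single values of the 6 members, while 21 gained a call and 58 lost it. Under the other alternatives 711 kept it, 42 gained and 21 lost. With the 25th percentile as floor or dim probe sets left out, Esrrb had no value.

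Counts of members moved as follows. Lower at day 4 against sorted went from 2 to 1 with array weights, the 25th percentile floor, only the groups compared, the replicate block, or day 4 arrays 6 and 7 left out. Lower from day 4 to day 8 went from 2 to 1 with only the groups compared or without day 8 arrays 2 and 4, and to 3 with array weights, dim probe sets left out, the percentile 1 floor, median centring, the replicate block or without day 4 arrays 6 and 7. Lower from day 8 to day 14 went from 2 to 1 with dim probe sets left out or the 25th percentile floor, and to 3 with array weights, median centring, quantile normalization or without day 8 arrays 2 and 4. With gelatin as day 0, members with a change of pace went from 3 to 1 with only the groups compared. With sorted as day 0 they went from 0 to 1 with array weights or the replicate block and to 2 without day 4 arrays 6 and 7. Per day after day 8 they went from 2 to 4 with array weights or without day 4 arrays 6 and 7, to 1 without day 8 arrays 2 and 4 and to 0 with only the groups compared. The cause was not tested.

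With 1 array left out, members lower ranged over 1 to 2 (day 4), 3 to 4 (day 8) and 5 to 6 (day 14) against sorted, 1 to 1, 2 to 3 and 3 to 5 against gelatin, 2 to 4 between the day-0 groups, 2 to 3 from day 4 to day 8 and 2 to 3 from day 8 to day 14. Changes of pace ranged over 1 to 4 with gelatin, 0 to 1 with sorted and 0 to 3 per day, and differing pairs over 9 to 12 against gelatin and 10 to 11 against sorted.

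Replicate numbers did not pair the samples: over 60 pairs of groups and numbers the correlation of deviations ran from -0.35 to 0.49, 23 were over 0.1, and 7 of 30 arrays were closest to their own number. With the replicate block 5 members were lower at day 14 against gelatin, where 4 were without it, and 3 at day 8, where 2 were, with Klf4 the gain on both days.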
